A study of Mus musculus with 15 samples.

Results

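Complex I of the respiratory chain, NADH:ubiquinone oxidoreductase, takes electrons from NADH to ubiquinone and pumps protons across the inner mitochondrial membrane. It is built from an N module that oxidizes NADH, a Q module that reduces ubiquinone, and the PP and PD modules of the proximal and distal membrane arm. Some of its core subunits are encoded by mitochondrial DNA, and the other core subunits and all supernumerary subunits are encoded in the nucleus. Skeletal muscle, and above all its oxidative fibers, depends on the complex for sustained ATP supply.

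The nuclear-encoded complex I genes were taken as the protein-coding mouse genes whose symbol is Nduf followed by a, b, c, s or v and a number, with a mean of at least 10 counts per mouse. The rule used symbols, biotype and mean count, and no difference between groups. Of 41 symbols that fit, 39 genes were members, among 55450 genes counted. They comprised 36 structural subunits, of which 7 were core and 29 supernumerary, with 10 in module N, 6 in module Q, 9 in module PP and 11 in module PD. Schemes differ on the module of Ndufa6, Ndufa7, Ndufa9 and Ndufa12, here placed in N, N, Q and N. The other 3 members were Ndufa4, now counted with complex IV, Ndufa4l2, a paralog of it induced under hypoxia, and Ndufb4c, a copy of Ndufb4. The processed pseudogenes Ndufs6b and Ndufa11b were left out. GENCODE M21 lists 37 of the members as protein-coding, and the other two, Ndufb1 and Ndufb4c, are protein-coding only in RefSeq. The symbol rule did not reach the acyl carrier subunit Ndufab1, which was counted with the assembly genes, and mitochondrially encoded subunits were not analysed here.

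The 15 mice were C57BL/6JN females past 17 months of age, and RNA came from their gastrocnemius. They were grouped by the number of positive frailty markers against cut-offs drawn from the same cohort. Low Control (n = 4) and High Control (n = 3) mice stayed sedentary, and Low Run (n = 4) and High Run (n = 4) mice ran downhill on a treadmill (13 m/min, 22 degrees of decline), with muscle taken 24 h after the last run. The labels call the Low mice robust and the High mice frail. Each library was 1 mouse, from a portion of powdered whole muscle, so less RNA per fiber and fewer fibers of a type cannot be told apart.

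Levels are in CPM, counts scaled to a common library size by the trimmed mean of M-values (TMM), and marker sums are in CPM of the total count. Total counts ranged from 19395125 to 30699216 per mouse, and the lowest count of any member in any mouse was 56. Members took between 0.552% (Low Control mouse D9) and 0.936% (Low Run mouse D68) of all counts. The 6 fast fiber marker genes summed to between 108200 and 156500 CPM in every mouse, and no marker gene of any list was at 0 in every mouse. Low Control mouse D9 and High Run mice D62 and D53 stood apart from their groups over all genes, with sample quality weights of 0.196, 0.241 and 0.393 against 0.663 to 2.35 in the other mice, so results are given with and without them where they turn on them. Values of groups are means ± SD. Log2 fold changes are from edgeR's quasi-likelihood fit over all genes, with p adjusted by Benjamini-Hochberg over all genes tested. They are given ± an SE derived from that fit, the absolute log2 fold change divided by the square root of the F statistic.

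The promoters of the subunit genes that the comparisons below turn on are shown first, since factors that control respiratory chain genes are known to bind near their start sites. The 300-base windows are from RefSeq on GRCm38.p6, from 250 bases before to 50 bases after the start site, on the strand of the gene. Capitals mark a match to NRF1 (GCGCNTGCG, nuclear respiratory factor 1) or to YY1 (AAGATGGCG), each searched on both strands. Ndufs4, Ndufa12 and Ndufb10 had the smallest p-values of the test described below among structural subunits in Low Run against Low Control mice, and Ndufa1 had the smallest in the Frailty × Run interaction. The window of Ndufs4 (ENSMUSG00000021764) lies at chr13:114388045-114388344 on the minus strand with a YY1 match over its start region, that of Ndufa12 (ENSMUSG00000020022) at chr10:94198785-94199084 on the plus strand with an NRF1 match, that of Ndufb10 (ENSMUSG00000040048) at chr17:24724374-24724673 on the minus strand with an NRF1 match on the opposite strand, and that of Ndufa1 (ENSMUSG00000016427) at chrX:37191189-37191488 on the minus strand with no match.
Ndufs4: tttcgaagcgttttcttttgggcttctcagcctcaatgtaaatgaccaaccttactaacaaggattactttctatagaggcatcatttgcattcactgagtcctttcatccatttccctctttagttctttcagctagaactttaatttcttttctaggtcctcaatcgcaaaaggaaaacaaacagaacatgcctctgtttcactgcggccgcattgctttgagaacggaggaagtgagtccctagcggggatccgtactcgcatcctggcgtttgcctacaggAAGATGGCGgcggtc
Ndufa12: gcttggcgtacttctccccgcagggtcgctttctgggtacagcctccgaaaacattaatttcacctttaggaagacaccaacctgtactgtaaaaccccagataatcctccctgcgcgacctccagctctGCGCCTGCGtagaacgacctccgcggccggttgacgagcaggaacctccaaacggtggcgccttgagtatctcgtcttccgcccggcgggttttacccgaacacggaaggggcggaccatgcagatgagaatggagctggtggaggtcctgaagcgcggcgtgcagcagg
Ndufb10: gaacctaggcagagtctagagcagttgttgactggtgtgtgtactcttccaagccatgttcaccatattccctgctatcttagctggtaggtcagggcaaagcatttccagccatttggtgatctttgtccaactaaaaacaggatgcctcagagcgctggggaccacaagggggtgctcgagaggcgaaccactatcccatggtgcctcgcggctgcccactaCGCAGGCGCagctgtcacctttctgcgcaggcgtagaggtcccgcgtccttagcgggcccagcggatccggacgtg
Ndufa1: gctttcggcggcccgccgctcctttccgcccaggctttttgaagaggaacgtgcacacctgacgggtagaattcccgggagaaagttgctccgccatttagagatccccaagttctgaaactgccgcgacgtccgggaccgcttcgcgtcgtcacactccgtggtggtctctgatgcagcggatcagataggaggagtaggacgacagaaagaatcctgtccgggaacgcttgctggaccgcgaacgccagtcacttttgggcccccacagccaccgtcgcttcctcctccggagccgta

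Promoter windows were matched for 32 of the 36 structural subunits. NRF1 letters were in 9 of them, 28.1%, against 7.12% of 27025 genes with a window. YY1 letters were in 5, 15.6%, against 1.64% of all genes. ETS/GABPA letters (CCGGAAG) were in 4, 12.5% against 9.93%, and ERR letters (AAGGTCA, the estrogen-related receptors) in 3, 9.38% against 5.38%. The 9 subunits with NRF1 letters were Ndufa5, Ndufa6, Ndufa8, Ndufa11, Ndufa12, Ndufb4, Ndufb10, Ndufs5 and Ndufs6, and Ndufs6 carried the YY1 letters as well. The 14 subunits with none of the 4 motifs had a median log2 fold change of 0.25 in Low Run against Low Control mice, beside 0.29 in the 18 subunits with any of them. In the interaction these medians were -0.33 and -0.39. A match is a run of letters and not a binding site.

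Transcript levels differed far more between subunits than between groups. Per kilobase of transcript, Ndufa4 had the highest level, with a mean of 925 CPM per kilobase over the 15 mice and a range of 700 to 1174. Ndufb9 of the distal membrane arm was also among the 3 highest (449, range 330 to 539), and its highest mouse did not reach the lowest mouse of Ndufa4. The lowest were Ndufb4 (15.5 CPM per kilobase, range 12.3 to 19.3), Ndufa4l2 (7.88, range 3.90 to 11.8) and Ndufb4c (7.37, range 5.16 to 9.70), and the ranges of Ndufa4l2 and Ndufb4c overlapped.

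The subunits of the 4 modules had similar levels despite this spread. The median level per length was 188 CPM per kilobase in module N, 181 in Q, 198 in PP and 215 in PD, and it was 215 in core and 207 in supernumerary subunits. The median of all genes tested was 3.69. Between the extremes, most neighbors in the order overlapped across mice, as the plot of levels per length shows.

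**Figure D1:**
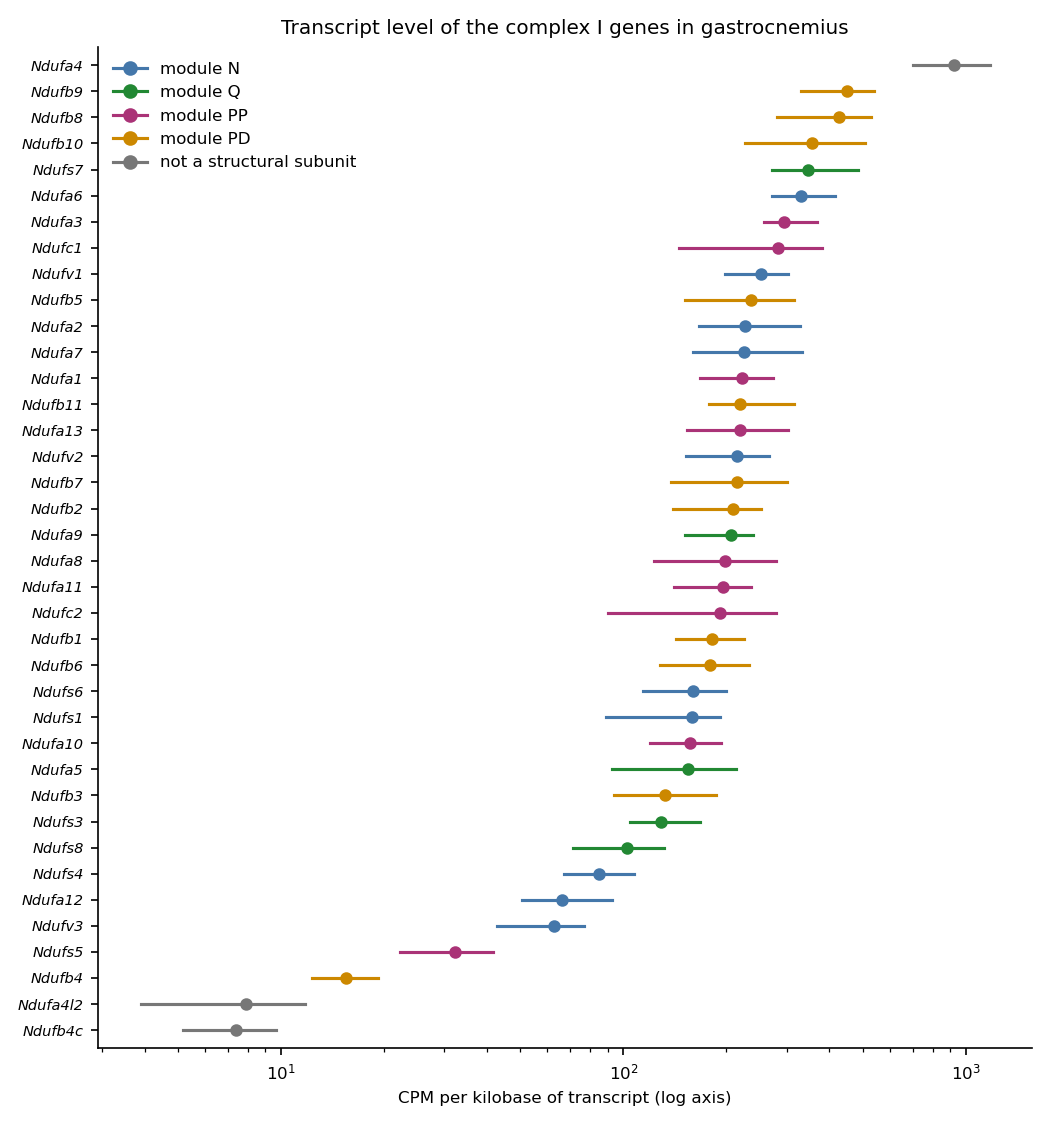
Level of 38 complex I genes in CPM per kilobase of transcript on a log axis, with points for the mean and lines from the lowest to the highest of the 15 mice, colored by module. Ndufa4 stands alone at the top with 925, most subunits lie between 100 and 500, and Ndufb4, Ndufa4l2 and Ndufb4c lie at the bottom.

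Some levels were uncertain because processed copies took reads that could be assigned to them alone. BC002163, a copy of Ndufs5, had 46.1 CPM beside 19.4 CPM for Ndufs5 itself, and 21.7% of the 50-base stretches of Ndufs5 also occurred in another gene. Gm15920, a copy of Ndufa12, had 57.9 CPM beside 73.5 CPM for Ndufa12, and held between 40.0% and 47.0% of their joint counts in each mouse. Gm12251, a copy of Ndufs3, had 64.6 CPM beside 134.7 CPM for Ndufs3. Every 50-base stretch of Ndufb4c occurred elsewhere, so reads of Ndufb4 and Ndufb4c could not be fully separated. These copies were chosen after their values were seen.

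Across the 15 mice most subunits were high or low in the same mice. The score of a module in a mouse was the mean over its subunits of the deposited variance-stabilized values, each centred on its gene's mean, in log2-like units. Over all 36 structural subunits this score was -0.38 in Low Control mouse D9 and between -0.065 and -0.016 in the other 3 Low Control mice. It was 0.32 in Low Run mouse D68 and between -0.019 and 0.13 in the other 3 Low Run mice. High Control mice D23, D25 and D67 were at 0.15, -0.043 and 0.16. High Run mice D49, D52, D53 and D62 were at -0.078, -0.047, 0.27 and -0.36, so 1 group held both a value near the highest and a value near the lowest of all mice. All 4 groups overlapped.

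**Figure D2:**
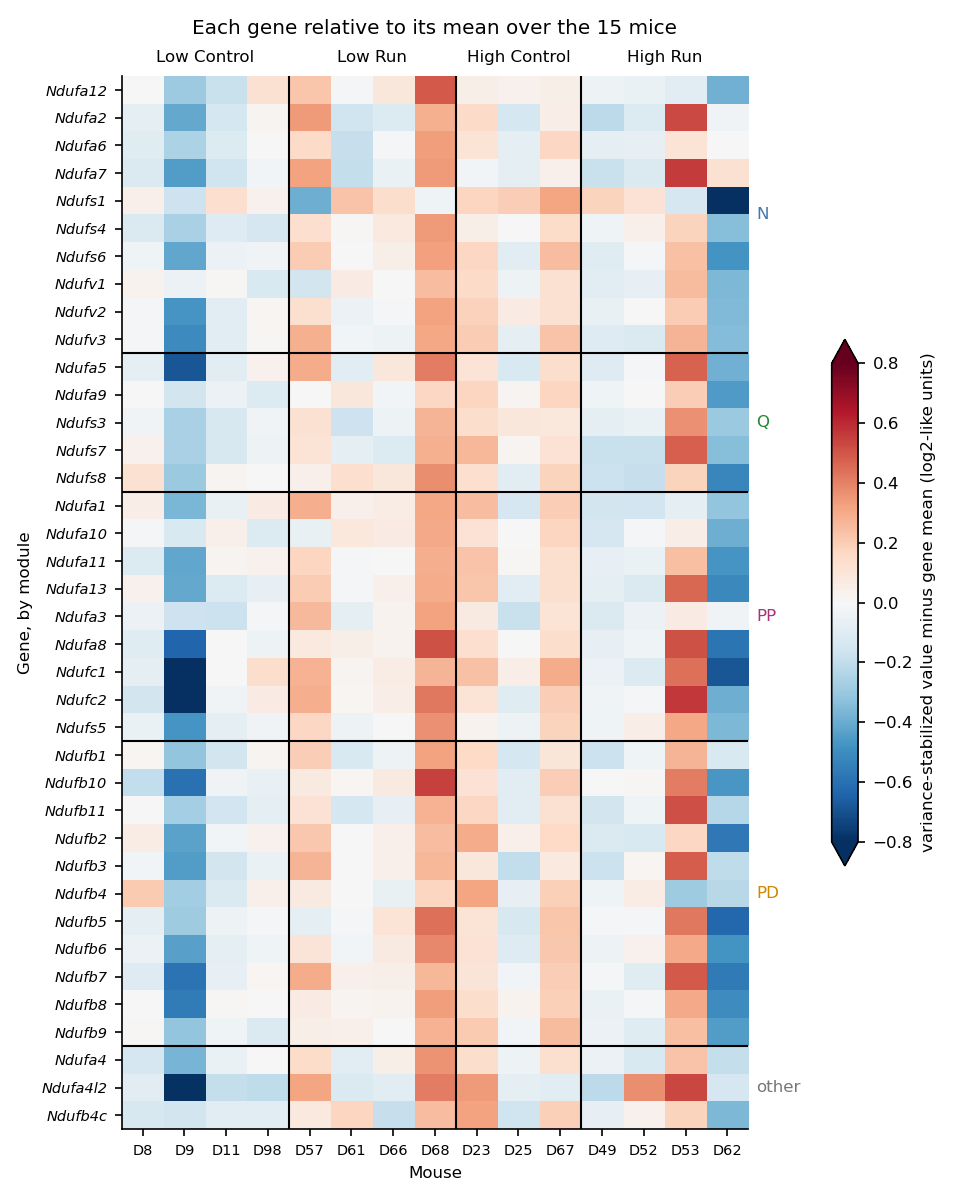
Variance-stabilized value of 38 complex I genes, each minus its mean over the 15 mice, in log2-like units, with mice in columns by group and genes in rows by module. Columns D9 and D62 are blue and columns D68 and D53 are red over most genes, with Ndufs1, Ndufb4, Ndufa1 and Ndufa12 departing from their column in some of these mice.

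The same 4 mice set the ends of their groups for most members. Mouse D9 was the lowest Low Control mouse for 37 of 39 members, where it was the lowest for 37.2% of all genes tested. Mouse D68 was the highest Low Run mouse for 34 members (26.97% of all genes). Mouse D53 was the highest High Run mouse for 36 members (27.4% of all genes) and mouse D62 the lowest for 31 (32.7% of all genes). Among High Control mice, D25 was the lowest for 35 members (32.6% of all genes).

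Module scores differed little within a mouse compared with the differences between mice. Module N, given for the control and then the run mice of the Low group and next of the High group, scored -0.11 ± 0.14, 0.10 ± 0.15, 0.083 ± 0.090 and -0.050 ± 0.21. Module Q scored -0.093 ± 0.11, 0.080 ± 0.16, 0.085 ± 0.087 and -0.050 ± 0.27 in the same order. Module PP scored -0.15 ± 0.24, 0.14 ± 0.15, 0.091 ± 0.12 and -0.065 ± 0.29, and module PD -0.13 ± 0.19, 0.11 ± 0.15, 0.090 ± 0.14 and -0.050 ± 0.29. In every module the means of Low Run and High Control mice lay above 0 and those of Low Control and High Run mice below it. Each SD was larger than the distance of its mean from 0, and in every module the SD was largest in High Run mice. The widest gap between modules in 1 mouse was 0.25, in mouse D9, between module Q at -0.25 and module PP at -0.50.

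**Figure D3:**
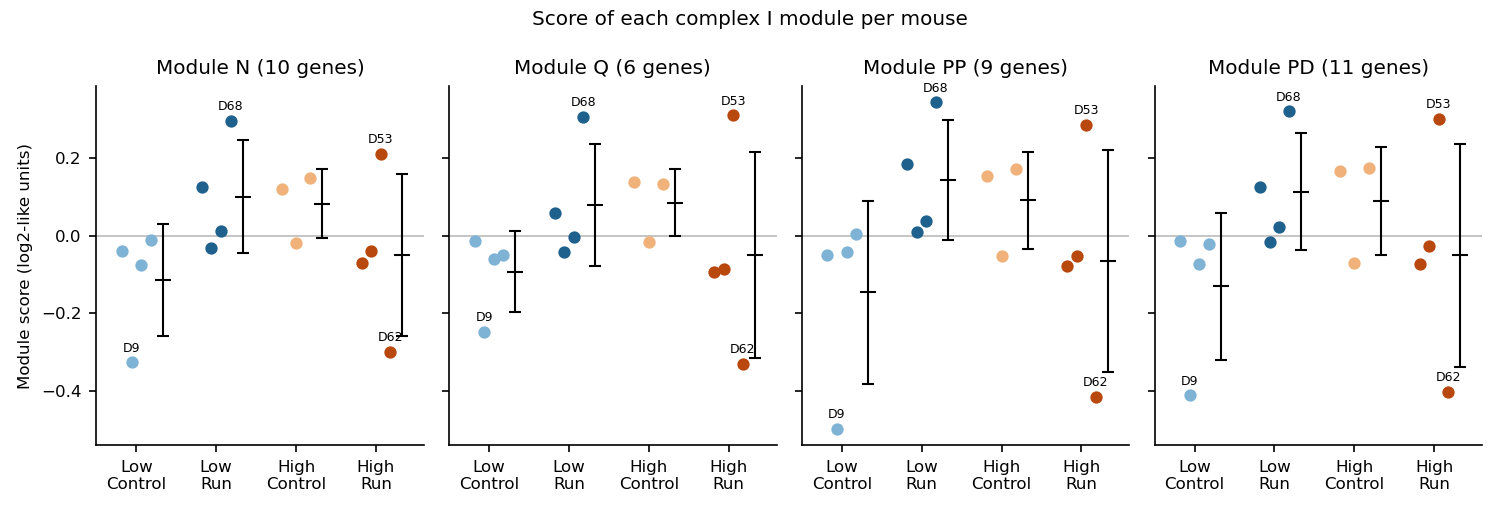
Score of each module in each mouse, in log2-like units, with points for mice and black marks for the mean ± SD of a group. The 4 panels repeat one order of mice, with D9 lowest in Low Control, D68 highest in Low Run, and D53 and D62 at opposite ends of High Run.

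Low Run mice had higher mean levels than Low Control mice in all 39 members, of which 36 are structural subunits of complex I, and no single member passed the test. Among the structural subunits the highest log2 fold change was 0.44. The median log2 fold change of the members was 0.26 and their range 0.0014 to 0.52, beside a median of 0.02 over all 16920 genes tested, of which 51.9% were higher. Ndufs4, a supernumerary subunit needed for a stable N module, had 132.4, 118.3, 132.7 and 130.7 CPM in Low Control mice D8, D9, D11 and D98 and 157.4, 145.1, 152.0 and 182.1 CPM in Low Run mice D57, D61, D66 and D68. Every Low Run mouse exceeded every Low Control mouse. Its log2 fold change was 0.31 ± 0.12 (edgeR adjusted p = 0.358).

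Ndufb10, a subunit of the distal membrane arm, had 166.4 CPM in mouse D9 and 222.6 to 248.4 in the other Low Control mice, and 259.3 to 268.5 CPM in 3 Low Run mice with 372.0 in mouse D68. These groups did not overlap either, and the log2 fold change was 0.41 ± 0.19 (edgeR adjusted p = 0.367). Ndufa12, a supernumerary subunit at the joint of the N and Q modules, had 58.7 to 79.3 CPM in Low Control and 72.7 to 102.6 CPM in Low Run mice, which overlapped. Its log2 fold change was 0.30 ± 0.14 (edgeR adjusted p = 0.364). Ndufa4l2 had 5.61 ± 1.34 CPM in Low Control and 8.05 ± 1.68 CPM in Low Run mice, with a log2 fold change of 0.52 ± 0.24 (edgeR adjusted p = 0.367).

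Those 4 members, of which 3 are structural subunits, were the ones higher at an unadjusted p under 0.05 (4 of 39). Of all genes tested 5.93% were higher at that p, and no member was lower at it. At an FDR of 0.1, 0 of 39 members and 0% of all genes were called. Groups did not overlap, with Low Run higher, for 8 members, against 3.35% of all genes tested. They were Ndufa8, Ndufb3, Ndufb6, Ndufb7, Ndufb8, Ndufb10, Ndufs4 and Ndufs6, named after their values were seen.

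The 7 core subunits had a median log2 fold change of 0.17, beside 0.27 in the 29 supernumerary subunits. Core transcripts were also longer, with a median of 1623 against 683 bases. By length alone, the 12 members of 1000 bases or more had a median log2 fold change of 0.205 and the 27 shorter ones 0.264. With the offsets for gene length and GC content described below these were 0.087 and 0.075. The part of length in the difference between core and supernumerary subunits was not tested. Ndufv1, which binds NADH and the flavin, had 405.4 ± 18.7 CPM in Low Control and 431.3 ± 49.3 CPM in Low Run mice (log2 fold change 0.09 ± 0.14). Ndufv2, its iron-sulfur partner, had 330.7 ± 49.7 and 389.6 ± 45.9 CPM (0.24 ± 0.15). Ndufs1, the largest iron-sulfur core subunit, had 406.7 ± 36.3 and 407.1 ± 73.9 CPM (0.0014 ± 0.19). The Q module core subunits Ndufs3, Ndufs7 and Ndufs8 had log2 fold changes of 0.17 ± 0.14, 0.17 ± 0.17 and 0.20 ± 0.15. None of the core subunits had an unadjusted p under 0.05.

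The Low difference moved with single mice and with a correction for gene length and GC content. Without Low Control mouse D9 the median log2 fold change of the members was 0.16, and 0 members had an unadjusted p under 0.05, as was also the case without Low Run mouse D68, which held 330.8 CPM of the 3 neutrophil marker genes against at most 42.3 in Low Control mice. That count was 2 without mouse D11, 2 without mouse D57 and 9 without mouse D61. With offsets for gene length and GC content the median was 0.07, with 34 of 39 members higher and 0 at an unadjusted p under 0.05. The offset at the members averaged -0.22 (log2) in mouse D9 and 0.12 in mouse D68. It was 0.15 in mouse D57. All 7 slow and oxidative fiber markers were higher in Low Run than in Low Control mice, with a median log2 fold change of 0.26, and none had an unadjusted p under 0.05. All 6 macrophage markers were higher too, with a median of 0.29 and 1 at that p, while the 3 erythroid markers were lower, with a median of -1.19 and none at that p. Of the 6 fast fiber markers 4 were higher and 2 lower, 1 of the latter at that p. The part of the offsets and of these markers in the result was not tested.

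High Run mice had slightly lower mean levels than High Control mice in 32 of 39 members, and again no member passed the test. The median log2 fold change was -0.085 and the range -0.33 to 0.17, beside 0.05 over all genes tested, of which 42.8% were lower. No member was lower at an unadjusted p under 0.05, where 1.9% of all genes were, and at an FDR of 0.1 0 members and 0% of all genes were called. Ndufa1, an X-linked subunit with 1 membrane span, had 108.9, 84.1 and 104.5 CPM in High Control mice D23, D25 and D67 and 83.2, 83.1, 88.4 and 74.6 CPM in High Run mice D49, D52, D53 and D62. Only mouse D25 lay within the range of the High Run mice, and the log2 fold change was -0.27 ± 0.14 (edgeR adjusted p = 0.956).

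Ndufb2 of the distal membrane arm had 105.1 ± 9.30 CPM in High Control and 85.8 ± 17.8 CPM in High Run mice (log2 fold change -0.29 ± 0.17). Ndufb4 had 16.6 ± 2.27 and 13.8 ± 1.603 CPM (-0.27 ± 0.15), with the limit on its reads given above. Ndufs1 had the lowest log2 fold change of the members, -0.33 ± 0.20, with 453.6, 465.0 and 496.8 CPM in High Control mice and 457.7, 440.9, 374.0 and 229.8 CPM in High Run mice D49, D52, D53 and D62. Mouse D62 alone lay far below the others. Ndufa7, a supernumerary N module subunit, had the highest, 0.17 ± 0.19, with 115.2 ± 3.88 and 129.4 ± 32.8 CPM.

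Ndufs8, a core subunit that carries iron-sulfur clusters of the Q module, had 104.2 ± 9.32 CPM in High Control and 89.5 ± 18.2 CPM in High Run mice (log2 fold change -0.22 ± 0.16). Ndufa12 was the 1 member whose High Run mice (56.0 to 70.8 CPM) lay all below the High Control mice (74.3 to 74.9 CPM), against 3.6% of all genes tested. Its log2 fold change was -0.16 ± 0.15 (edgeR adjusted p = 0.958).

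The High Run mice did not share a direction. The median over the members was -0.23 without mouse D53, with 4 members at an unadjusted p under 0.05, and -0.025 without mouse D62, with 0. It was -0.16 without High Control mouse D25, with 2. With offsets for length and GC content it was -0.17, with 36 of 39 members lower and 4 at an unadjusted p under 0.05. All 7 slow and oxidative fiber markers were higher in High Run than in High Control mice, 3 of them at an unadjusted p under 0.05, and their sum was 4215 to 7192 CPM in High Run and 3373 to 4308 in High Control mice. All 6 macrophage markers were higher too, 3 at that p, with sums of 65.3 to 153.6 and 41.3 to 73.6. All 6 fast fiber markers were lower, with a median log2 fold change of -0.28 and 1 at that p, and their sum was 108200 to 141200 CPM in High Run and 142500 to 154000 CPM in High Control mice, which did not overlap. The 3 erythroid markers were higher, all at that p, and summed to 370.7 to 3557 in High Run and 264.5 to 449 in High Control mice. The 3 Schwann cell markers were also higher, 1 at that p, with sums of 92.0 to 286.3 and 120.7 to 131.2. The part of these markers in the levels of the members was not tested.

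**Figure D4:**
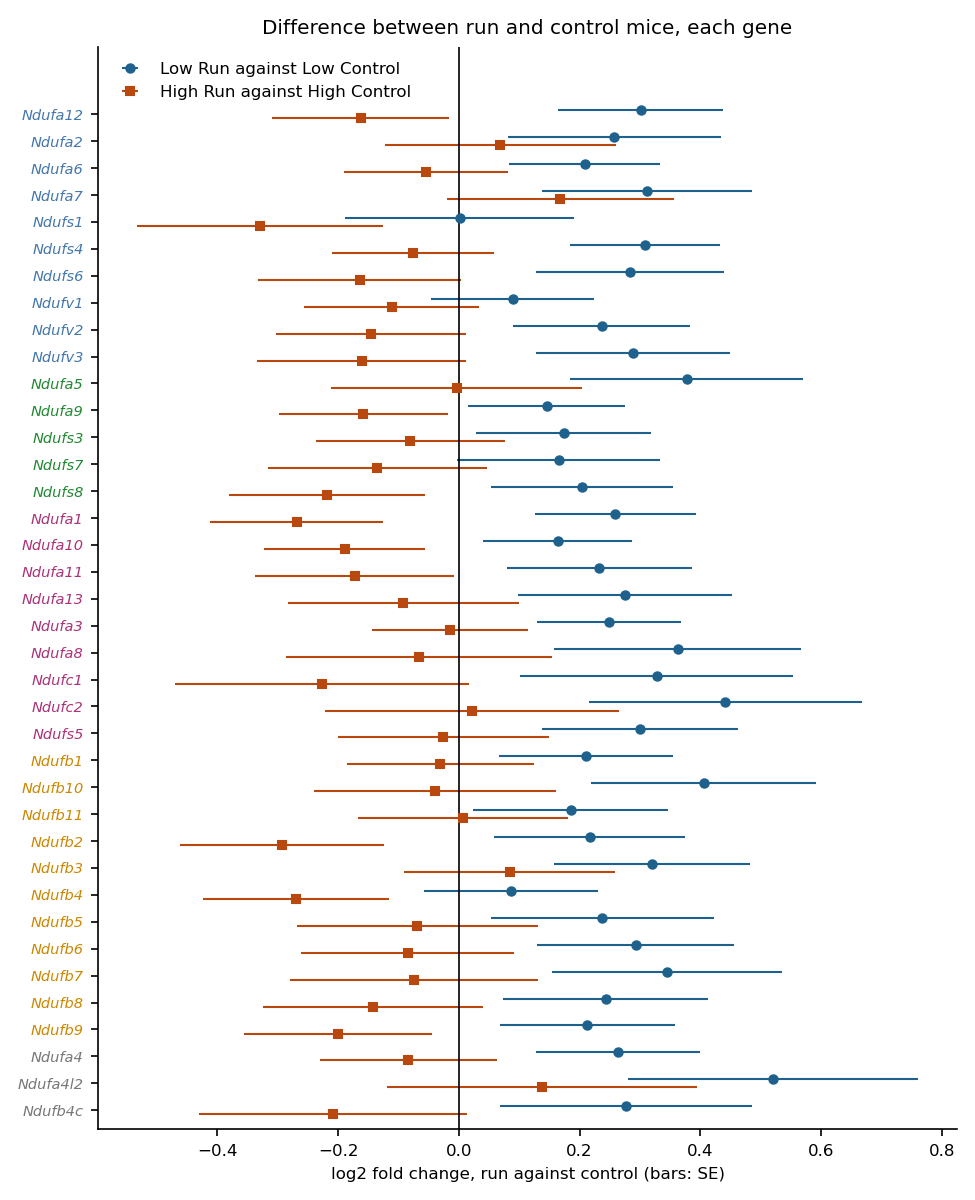
Log2 fold change of 38 complex I genes with its SE, in Low Run against Low Control mice (circles) and High Run against High Control mice (squares), with gene names colored by module. All 38 circles lie at or right of 0, and 32 of 38 squares lie left of 0, with most bars of a pair apart and some, such as those of Ndufa7, overlapping.

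The Frailty × Run interaction asks whether running changed a transcript differently in High than in Low mice. It was below 0 for all 39 members, where 46.9% of all genes tested were below 0, with a median of -0.38, and the median of all genes was 0.03. The members at an unadjusted p under 0.05 all had a negative interaction (3 of 39, against 2.69% of all genes), and at an FDR of 0.1 0 members and 0% of all genes were called. Ndufa1 had the smallest p, with 87.5 ± 12.1 CPM in Low Control, 104.7 ± 10.3 in Low Run, 99.2 ± 13.3 in High Control and 82.3 ± 5.73 in High Run mice. Its interaction was -0.53 ± 0.20 (log2; edgeR adjusted p = 0.600), and it stayed between -0.63 and -0.43 with each mouse left out in turn.

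Ndufa12 had an interaction of -0.46 ± 0.20 (edgeR adjusted p = 0.600), and Ndufb2 one of -0.51 ± 0.23 (edgeR adjusted p = 0.600). Ndufb2 had 68.5 to 97.6 CPM in Low Control, 93.9 to 111.2 in Low Run, 96.6 to 115.0 in High Control and 63.4 to 106.9 CPM in High Run mice, so its High Run mice spanned nearly the whole range of the other groups. The median interaction was -0.36 in module N, -0.30 in Q, -0.41 in PP and -0.38 in PD, and -0.30 in core and -0.38 in supernumerary subunits. By length alone it was -0.34 in members of 1000 bases or more and -0.38 in shorter ones. With offsets for length and GC content these medians by length were -0.30 and -0.29. Within module N the interaction ran from -0.46 for Ndufa12 to -0.14 for Ndufa7, and schemes differ on the module of both. Within module Q it was lowest for Ndufs8 at -0.42. Within module PP it ran from -0.55 for Ndufc1, a small subunit of the membrane arm, to -0.26 for Ndufa3, and within module PD from -0.51 for Ndufb2 to -0.18 for Ndufb11, which is X-linked like Ndufa1.

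Single mice decided how many members reached an unadjusted p under 0.05 in the interaction. Without High Run mouse D53, which was the highest of its group for most members, 23 of 39 did, and the median was -0.49. Without High Run mouse D62 the median was -0.27 with 1 member, and without Low Control mouse D9 it was -0.27 with 1 member. The count was also 1 without mice D11, D68 or D67, 2 without mice D49 or D52, and 0 without mouse D23. With offsets for length and GC content the median was -0.29, and 38 of 39 members stayed below 0. At an FDR of 0.1, 0 members were called in any of these fits. The share of all genes at an unadjusted p under 0.05 in each refit is not given here, so these counts have no background beside them. The interaction was above 0 for all 3 erythroid markers, each at an unadjusted p under 0.05, with a median of 3.31, and for all 3 Schwann cell markers, 2 of them at that p, with a median of 0.97. It was also above 0 for all 7 slow and oxidative fiber markers (median 0.36) and all 6 macrophage markers (median 0.42), and below 0 for 4 of 6 fast fiber markers (median -0.34), with none of these at that p. The part of these markers in the interaction of the members was not tested.

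Among sedentary mice, High Control mice had higher mean levels than Low Control mice in all 39 members, where 47.2% of all genes tested were higher. The median log2 fold change was 0.21 and the range 0.055 to 0.43, and no member had an unadjusted p under 0.05, where 1.80% of all genes were higher at that p. At an FDR of 0.1, 0 members and 0% of all genes were called. Ndufb9 had 289.0 ± 29.5 CPM in Low Control and 345.8 ± 32.9 CPM in High Control mice (log2 fold change 0.26 ± 0.16; edgeR adjusted p = 0.704). Part of the exons of Ndufb9 overlapped those of Gm49356 on the same strand. Ndufa4l2 had a log2 fold change of 0.43 ± 0.26 (edgeR adjusted p = 0.704) and Ndufs4 one of 0.22 ± 0.13 (edgeR adjusted p = 0.704).

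Groups did not overlap, with High Control higher, for 7 members, against 5.12% of all genes tested. These were Ndufa8, Ndufa9, Ndufb8, Ndufs1, Ndufs3, Ndufs4 and Ndufv2, of which Ndufs1, Ndufs3 and Ndufv2 are core subunits. Ndufs3 had 110.0 to 131.2 CPM in Low Control and 140.3 to 146.5 CPM in High Control mice (log2 fold change 0.21 ± 0.16). Ndufs1 had 355.9 to 441.9 and 453.6 to 496.8 CPM (0.21 ± 0.20). Without mouse D9 the median over the members was 0.13. The 3 erythroid markers were lower in High Control than in Low Control mice, all at an unadjusted p under 0.05, with a median log2 fold change of -1.51. All 6 macrophage markers (median -0.30) and 6 of 7 slow and oxidative fiber markers (median -0.21) were lower, and 5 of 6 fast fiber markers were higher (median 0.20), with none of these at that p. The part of these markers in the levels of the members was not tested. This comparison shares its Low Control mice with the Low running comparison.

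Between the groups that ran, High Run mice had lower mean levels than Low Run mice in 35 of 39 members, where 47.8% of all genes tested were lower, with a median log2 fold change of -0.15. Ndufa1 and Ndufa12 were lower at an unadjusted p under 0.05 (2 of 39, against 0.987% of all genes), and at an FDR of 0.1 0 members and 0% of all genes were called. They were also the 2 members whose groups did not overlap, against 0.774% of all genes tested. For Ndufa1 the Low Run mice had 112.8, 95.3, 96.4 and 114.4 CPM and the highest High Run mouse 88.4 CPM, with a log2 fold change of -0.35 ± 0.13 (edgeR adjusted p = 1.00). For Ndufa12 the lowest Low Run mouse had 72.7 CPM and the highest High Run mouse 70.8 CPM (-0.34 ± 0.14; edgeR adjusted p = 1.00).

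Ndufs8 followed at -0.31 ± 0.15 (edgeR adjusted p = 1.00), with 101.9 to 128.3 CPM in Low Run and 69.4 to 113.5 CPM in High Run mice. Among the members that were higher in High Run mice, Ndufa7, Ndufb11 and Ndufa4l2 had log2 fold changes of 0.015 to 0.044. The median over the members was -0.28 without mouse D53, with 8 members at an unadjusted p under 0.05, -0.039 without mouse D62, with 1, and -0.074 without mouse D68, with 0. Without mouse D57 1 member was at that p. The 3 Schwann cell markers (median log2 fold change 0.83) and the 3 erythroid markers (median 1.76) were higher in High Run than in Low Run mice, each at an unadjusted p under 0.05. Of the fiber markers, 6 of 7 slow and oxidative ones were higher (median 0.21) and 5 of 6 fast ones lower (median -0.12), with none at that p. The part of these markers in the levels of the members was not tested.

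Most subunits followed the common score closely, and a few did not. The SD over the 15 mice of a subunit minus the score had a median of 0.11 over the 36 structural subunits, beside 0.22 for the subunit itself. It was smallest for Ndufv2 at 0.049 and Ndufs6 at 0.049, and largest for Ndufs1 at 0.28. Ndufs1 lay 0.52, 0.35, 0.41 and 0.46 below the score in mice D57, D68, D53 and D62, 2 from each running group, and 0.12 to 0.25 above it in the other 4 mice that ran. Within each control group Ndufs1 lay above the score in every mouse. Its principal transcript, of 2590 bases, was the longest of the members, where the median of the structural subunits was 760.5 bases. The mean offset for length and GC content at the members was 0.15, 0.12, 0.20 and 0.056 (log2) in mice D57, D68, D53 and D62. The same offset was -0.074 to 0.015 in the other 4 mice that ran. The part of length and GC content in this pattern was not tested.

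Ndufa12 and Ndufa1 departed from the score in mouse D53 in particular. There the score was 0.27, and Ndufa12 lay -0.36, Ndufa1 -0.35 and Ndufb4 -0.56 from it, while Ndufa7 lay 0.28 above it. In the other 3 High Run mice Ndufa12 lay between -0.022 and 0.037 from the score, and Ndufa1 between -0.11 and 0.048.

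**Figure D5:**
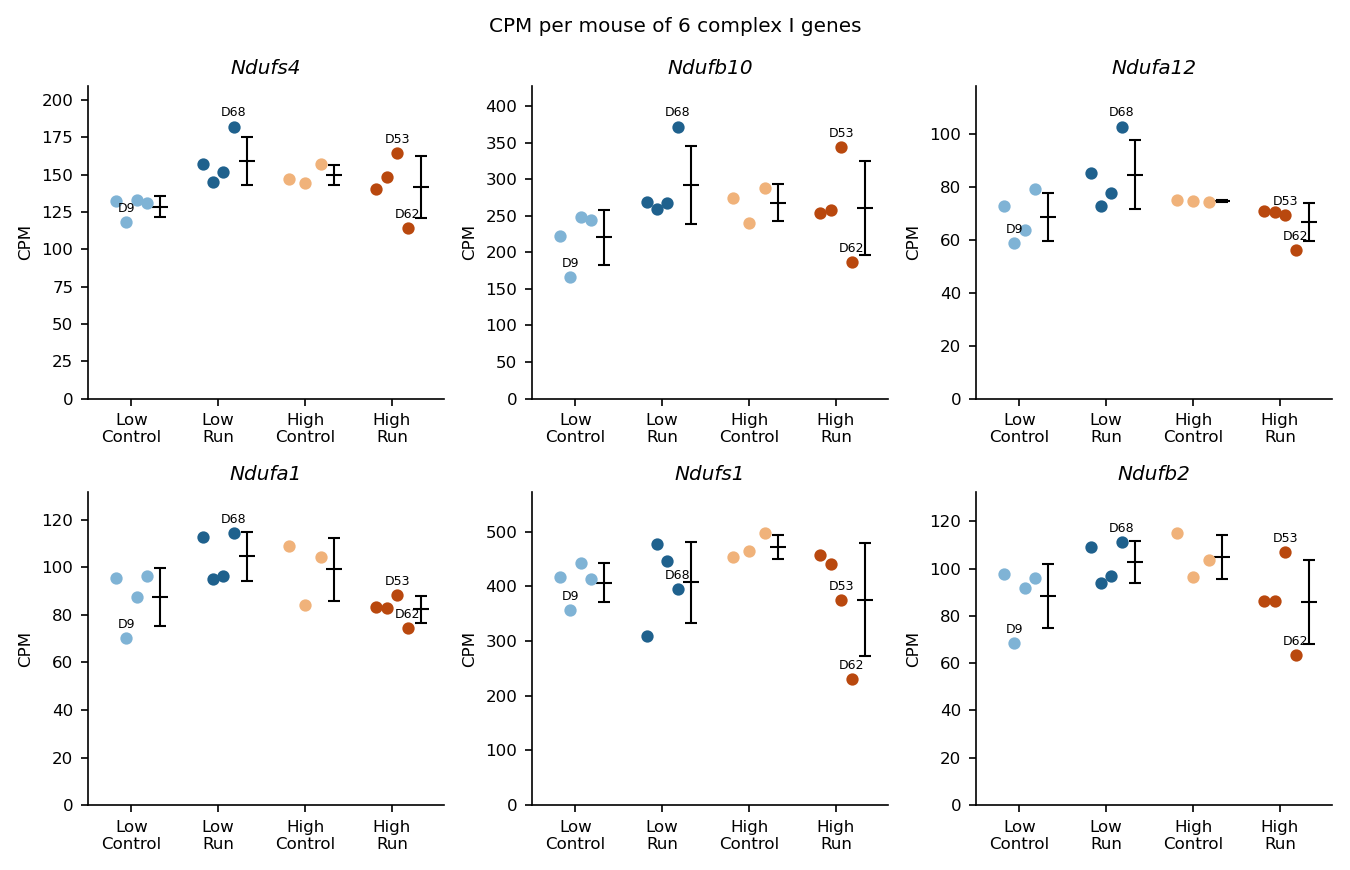
CPM per mouse of 6 complex I genes on linear axes from 0, with points for mice, black marks for the mean ± SD, and mice D9, D68, D53 and D62 labelled. For Ndufs4 and Ndufb10 every Low Run mouse lies above every Low Control mouse, for Ndufa12 and Ndufa1 the High Run mice lie below the Low Run mice, while Ndufs1 does not follow this order, and the High Run mice of Ndufb2 spread from 63.4 to 106.9 CPM.

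Processed copies were compared with their parent genes where they had a mean of at least 10 counts. They also had to share at least 5% of the parent's 50-base stretches. This gave 7 copies, among them the member Ndufb4c. Of all genes tested 51.9% were higher in Low Run than in Low Control mice and 46.9% had a negative interaction. The share with both is not given here. Of the 7 copies, 6 had the same sign as their parent gene in both, higher in the first and below 0 in the second. The exception was Gm6444, a copy of Ndufb11 with 7.34 CPM, which had a log2 fold change of 0.09 and an interaction of 0.05, where Ndufb11 had 0.19 and -0.18. BC002163 had a log2 fold change of 0.32 in Low Run against Low Control mice and an interaction of -0.53, where Ndufs5 had 0.30 and -0.33. Gm15920 had 0.39 and -0.44, where Ndufa12 had 0.30 and -0.46. Ndufs6b had 0.44 and -0.62, where Ndufs6 had 0.28 and -0.45. Gm12251 had 0.18 and -0.19, where Ndufs3 had 0.17 and -0.25. None of these passed an FDR of 0.1.

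Most genes that build complex I had the same sign as most of its subunits in each comparison. Of 20 assembly and carrier genes tested, 19 were higher in Low Run than in Low Control mice, where 51.9% of all genes tested were. Their median log2 fold change was 0.30. Ndufaf3, an early assembly factor of the Q module, had 0.46 ± 0.19 (edgeR adjusted p = 0.358) and Nubpl, which delivers iron-sulfur clusters, 0.34 ± 0.15 (edgeR adjusted p = 0.363). All 20 had a negative interaction, with a median of -0.39, where 46.9% of all genes tested were below 0. Of the 20, 6 had an unadjusted p under 0.05, where 2.69% of all genes had a negative interaction at that p. The 6 were Ndufab1, Ndufaf1, Ndufaf3, Ndufaf5, Ndufaf6 and Tmem126a, at -0.77 for Ndufaf5, which modifies Ndufs7, to -0.52 for Ndufab1. None of the 20 was called at an FDR of 0.1. In High Control against Low Control mice all 20 were higher, with a median of 0.25, and Ndufaf6 and Nubpl were at an unadjusted p under 0.05. Of all genes tested 47.2% were higher in that comparison, and 1.80% were higher at that p. In High Run against High Control mice 16 of the 20 were lower (42.8% of all genes), with a median of -0.14. In High Run against Low Run mice 18 were lower (47.8% of all genes), with a median of -0.15. Without mouse D9 the median of the Low difference was 0.14, with 17 higher. The 6 interactions at an unadjusted p under 0.05 became 2 without mouse D9, 0 without D68, 1 without D62 and 11 without D53.

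The other complexes of the respiratory chain had medians in the same range as the complex I genes. In Low Run against Low Control mice the median log2 fold change was 0.26 over 4 genes of complex II, 0.25 over 9 of complex III, 0.22 over 13 of complex IV and 0.27 over 15 of ATP synthase. Cox7a2 of complex IV (0.37 ± 0.15; edgeR adjusted p = 0.358) and Atp5k of ATP synthase (0.48 ± 0.20; edgeR adjusted p = 0.358) were the only genes of these lists at an unadjusted p under 0.05 in any of the 5 comparisons. In the interaction the medians were -0.32, -0.36, -0.31 and -0.30 in the same order. In High Run against High Control mice they were -0.12, -0.11, -0.071 and -0.088. In High Control against Low Control mice they were 0.21, 0.21, 0.17 and 0.21, and in High Run against Low Run mice -0.11, -0.17, -0.15 and -0.091.

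These medians turned on the same mice as those of the members. The scores of the 4 complexes, computed as for the modules, lay between -0.35 and -0.31 in mouse D9, 0.31 and 0.34 in mouse D68, 0.26 and 0.35 in mouse D53 and -0.52 and -0.27 in mouse D62. Without mouse D9 the Low medians of complex II, III, IV and ATP synthase were 0.16, 0.17, 0.15 and 0.15, and without mouse D68 they were 0.15, 0.16, 0.16 and 0.14. In the interaction they were -0.21, -0.29, -0.24 and -0.23 without mouse D9, and -0.48, -0.48, -0.43 and -0.47 without mouse D53. Without mouse D62 the medians of High Run against High Control mice were 0.0037, -0.021, -0.0047 and 0.041, so those of complex II and ATP synthase changed sign, and those of High Run against Low Run mice were 0.016, -0.038, -0.091 and 0.0087, where the same 2 did.

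In the fit without offsets for length and GC content, the transcriptional regulators of these genes mostly lay in the opposite direction in the Low mice. Medians with these offsets are given here for the members, and not for the regulators, the assembly genes or the other complexes. The part of length and GC content in the direction of the regulators was not tested. Of 13 regulators, 9 were lower in Low Run than in Low Control mice, where 48.1% of all genes tested were. The median log2 fold change of the regulators was -0.28, and 3 were lower at an unadjusted p under 0.05, as were 1272 of all 16920 genes. Pprc1, a coactivator related to PGC-1, had 37.0 ± 20.1 CPM in Low Control and 21.9 ± 4.18 CPM in Low Run mice (-0.76 ± 0.31; edgeR adjusted p = 0.358). Ppara, a receptor for fatty acids, had 7.43 ± 1.82 and 4.01 ± 1.96 CPM (-0.88 ± 0.35; edgeR adjusted p = 0.358). Gabpa, a factor of the ETS motif, had 39.0 ± 11.55 and 29.1 ± 5.56 CPM (-0.42 ± 0.20; edgeR adjusted p = 0.368). Nrf1 had a log2 fold change of -0.40 and Yy1 one of -0.39. Ppargc1a, which encodes PGC-1α, averaged 42.9 and 39.4 CPM in control and run mice of the Low group and 40.1 and 34.6 CPM in those of the High group, and Esrra, an estrogen-related receptor, 108.6, 121.0, 109.7 and 99.5 CPM in that order.

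In the interaction 9 of the 13 regulators were above 0, with a median of 0.23, where 53.1% of all genes tested were above 0. Pprc1 (1.12 ± 0.46; edgeR adjusted p = 0.600) and Ppara (1.33 ± 0.51; edgeR adjusted p = 0.600) were at an unadjusted p under 0.05, as were 887 of all 16920 genes in that direction. In High Control against Low Control mice 10 regulators were lower, with a median of -0.35, where 52.8% of all genes were lower. The same 2 genes, Pprc1 (-0.75 ± 0.34) and Ppara (-0.84 ± 0.38), were at that p, as were 687 of all 16920 genes in that direction. In High Run against High Control mice the median was 0.063 and in High Run against Low Run mice -0.010, with none at that p. Without mouse D9 the median of the regulators was -0.10 in the Low running comparison, with 1 at that p, and -0.12 in High Control against Low Control mice, with none. None was at that p in the Low running comparison without mouse D57 or D68, in High Control against Low Control mice without D25 or D67, or in the interaction without D67. No regulator was called at an FDR of 0.1 in any comparison.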

How the data were processed

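RNA sequencing libraries from the gastrocnemius of 15 mice were used, grouped by their labels. Alignment by the authors was to mm10 with STAR 2.7.9a, and properly paired reads with 1 alignment, on the gene's strand, were counted over Ensembl genes outside the mitochondrial genome with featureCounts of Subread, for which the submitters' processing notes list version 2.0.3 and the study's methods another. The deposited count values are whole numbers per gene without normalization, and the deposited log2-like values are a variance-stabilizing transformation of them by DESeq2. No column was left out. Gene names, biotypes and lengths came from GENCODE M21 on GRCm38, another gene set release on the same build.

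The tests were run with edgeR 4.0.16 in R 4.3.3 (filterByExpr, TMM, quasi-likelihood F-test, 1 mean per group, Benjamini-Hochberg over all 16920 genes tested, FDR of 0.1), and all 39 members passed the filter. The 5 comparisons were run against control within each frailty group, the Frailty × Run interaction, and High against Low within the sedentary and within the run mice. Levels per length used the principal transcript in place of all exons, which left the 6 highest and lowest members the same. Alternatives were RLE normalization, DESeq2 1.42.0, voom in limma 3.58.1 with sample quality weights, other filters and thresholds, offsets from a loess (span 0.3) on length and GC content, and each mouse left out in turn. The methods were tested on simulated data. Members, modules and gene lists were chosen with earlier results of these data known. Genes named were the 7 core subunits, the 3 members with the smallest p in each comparison, the lowest and highest interaction in each module, the 3 highest and 3 lowest levels per length and the members that are not structural subunits. Of these, 1 member enters all counts and medians but is not reported here by name. Other names were chosen after their values were seen. No sequencing batch is given in the labels. The lowest count of a member in a mouse was 56, and the precision of each comparison rests on 3 or 4 mice per group.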

Additional observations from a re-analysis of the deposited data

Results flagged for a closer look

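In 7 cases a value lay far from the other 3 mice of their group by the gap between them relative to the range of the group (Dixon's criterion at 95%). Of 78 groups of 4 values tested 7 did so, and chance alone gives about 1 in 20. Low Control mouse D9 was low for Ndufs4 at 118.3 CPM, where the nearest mouse had 130.7 CPM. Its score over all structural subunits was -0.38, next to -0.065, and its scores were -0.50 for module PP, next to -0.051, and -0.41 for module PD, next to -0.074. High Run mouse D62 was low for Ndufa12 at 56.0 CPM, next to 69.3 CPM. Low Run mouse D68 was high for Ndufb10 at 372 CPM, next to 268.5 CPM. High Run mouse D53 was high for Ndufs7, the core subunit that holds the last iron-sulfur cluster before ubiquinone, at 366.4 CPM, next to 230.0 CPM. These values rest on the same libraries and are not independent of each other.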

How the results depend on the processing

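No paired analysis was possible because the labels give no replicate numbers shared by groups. The median log2 fold change of the members kept its sign in every comparison under every alternative. Its changes were smaller than 0.188, the SD of the subunit score within groups. That SD is a spread of single mice and not the error of a median, so it cannot tell whether the medians were stable. In size the median of the members fell from 0.26 to 0.07 in Low Run against Low Control mice with length and GC offsets. With each mouse left out in turn it ranged from 0.16 to 0.29 in Low Run against Low Control mice, -0.23 to -0.025 in High Run against High Control mice, -0.49 to -0.27 in the interaction, 0.13 to 0.27 in High Control against Low Control mice and -0.28 to -0.039 in High Run against Low Run mice. With voom and sample quality weights these medians were 0.13, -0.13, -0.26, 0.15 and -0.10, and with length and GC offsets 0.07, -0.17, -0.29, 0.14 and -0.13. No member was called at an FDR of 0.05, 0.1 or 0.2, nor at 0.1 under any alternative.

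The number of members at an unadjusted p under 0.05 changed by more than 1.5 times in these fits. In Low Run against Low Control mice it was 4, and 0 with length and GC offsets, 1 with voom and 0 to 9 with a mouse left out. In High Run against High Control mice it was 0, and 4, 3 and 0 to 4. In the interaction it was 3, and 1, 5 and 0 to 23, and 5 with DESeq2. In High Control against Low Control mice it was 0, and 3 with voom. In High Run against Low Run mice it was 2, and 1 with only the groups compared and 0 to 8 with a mouse left out. For none of the 5 comparisons is the share of all genes at that p in the alternative fits given here, so these counts have no background beside them. Over all genes edgeR called 0 at an FDR of 0.1 in each comparison. Without a count filter it called 86, 19 and 4 in the first 3 comparisons and 6 in High Run against Low Run mice, DESeq2 called 10 and 15 in the first 2, and voom called 44 in High Run against High Control mice. The cause of these changes was not tested. All 153 alternative values kept their sign, but they cover only members at an unadjusted p under 0.05 in a comparison of the main fit. With length and GC offsets, 5 of 39 members were lower in Low Run than in Low Control mice, where none was in the main fit. The 64 alternative module means lay within 1 SD. The lowest count of a member in a mouse was 56, and each group held 3 or 4 mice.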
